A study of Homo sapiens with 26 samples.

Results

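The proteasome subunit genes described here are the 35 genes whose symbols are PSMA, PSMB, PSMC or PSMD followed by digits only, of 12239 genes listed in at least 1 of the 3 deposited tables. They comprise 15 genes of the core particle (7 PSMA and 8 PSMB) and 20 genes of the regulatory particle (6 PSMC and 14 PSMD). All 35 were listed in every table and all 35 passed the filter on low values. The rule by symbol used no measured value, but the members were chosen with earlier results of these data known. PSMB8 and PSMB9 are not analysed here.

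The proteasome is the chamber in which cells degrade proteins tagged with ubiquitin. The alpha subunits (PSMA) form the gated outer rings of the core particle, and the beta subunits (PSMB) form the inner rings, among which PSMB5, PSMB6 and PSMB7 carry the active sites. The regulatory particle caps the core: its base holds a ring of ATPases (PSMC) that unfold substrates, and its lid holds the deubiquitinase PSMD14. When proteasome activity is low, the transcription factor NFE2L1 is known to raise the subunit genes together through antioxidant response elements in their promoters.

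The study used 786-O, an established clear cell renal carcinoma line known to lack functional VHL, and asked how genes of nuclear speckle proteins affect its transcripts. Each of 5 genes was knocked down with 2 separate siRNAs: SART1 (siRNAs 4 and 6), a splicing factor that acts in tri-snRNP recruitment; DDX39A (siRNAs 1 and 4), an RNA helicase of mRNA export; SARNP (siRNAs 3 and 9), a partner of that export machinery; FIBP (siRNAs 6 and 7), an intracellular binding protein of a fibroblast growth factor; and TMEM259 (siRNAs 5 and 6), a membrane protein of the endoplasmic reticulum. Every group had 2 libraries, 26 in all, in 3 tables that the authors normalized separately: SART1 alone, DDX39A with SARNP, and FIBP with TMEM259. All groups carried the same transfection reagent, DharmaFECT 1, and the controls received an siRNA without a target. In the labels the controls are named NTC where DDX39A and SARNP were tested and NEGsiRNA elsewhere, and those of TMEM259 use its older symbol C19orf6. Cells were moved to fresh medium at 24 hours and collected at 48 hours after transfection, so every value is from 1 line at 1 time. Whether the 2 libraries in a group are separate transfections is not said in the labels, so the p-values measure the spread between these libraries, which may be technical. The same 2 control libraries served each siRNA of a table, for DDX39A as for SARNP and for FIBP as for TMEM259.

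Libraries held 8966609 to 26128173 reads assigned to genes. The targeted transcript stood at 33.3% and 26.8% of its control mean with the siRNAs of SART1, 14% and 16.5% for DDX39A, 13.5% and 8.48% for SARNP, 11% and 17.1% for FIBP, and 30.3% and 48.3% for TMEM259 (mean of 2 libraries against 2). All 10 kidney tubule and clear cell carcinoma markers were listed in each table. Of the markers of other cell types, none for endothelium, liver or red cells was listed. CD68 was the only 1 of 4 leukocyte markers listed, with a normalized signal of 132 to 404, and the listed neuronal markers summed to 9.43 to 77.8. In bulk RNA, fewer cells and less RNA per cell cannot be told apart.

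The subunits are assembled in fixed proportions, but their transcripts were far from equal in the control libraries. Normalized signal was divided by the length of the annotated principal transcript, and levels are given relative to the median member, as the lowest to the highest of the 3 tables. PSMA7, an alpha ring subunit, stood at 3.42 to 3.9 times the median member, and PSMB7, the trypsin-like catalytic subunit, at 3.03 to 3.76 times. PSMD2, a scaffold of the base, stood at 2.59 to 3 times and PSMB4, a structural beta subunit, at 2.41 to 2.7 times. These 4 genes held the 4 highest places in each table. At the other end, PSMB10, the immunoproteasome counterpart of PSMB7, stood at 0.255 to 0.295 times, the ATPase PSMC6 at 0.227 to 0.261 times, and PSMD5, a chaperone of base assembly, at 0.14 to 0.197 times. Per kilobase, the constitutive PSMB7 was thus far above its immunoproteasome counterpart in every control library. The median core particle gene stood at 1.16 to 1.25 times the median member, and the median regulatory particle gene at 0.73 to 0.828 times.

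These levels depend on which transcript gives the length. With the shortest coding transcript, a choice made after seeing the data, the same 4 genes kept the 4 highest places in every table. PSMC1, which was the lowest member with the principal transcript (0.09 to 0.114 times the median), then stood at 0.258 to 0.329 times. PSMA4 stood at 0.433 to 0.519 times the median with the principal and 1.66 to 2.01 times with the shortest transcript, and PSMD9 at 0.182 to 0.207 and 0.871 to 1.01 times, so no place in the order is given for these 3 genes. With the shortest transcript PSMD5 stood at 0.283 to 0.39 times, PSMC6 at 0.277 to 0.322 times and PSMB10 at 0.23 to 0.262 times. GENCODE lists 30 pseudogenes of 11 members, 13 of them of PSMC1, and reads shared with such copies make the levels of those members uncertain.

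**Figure D1:**
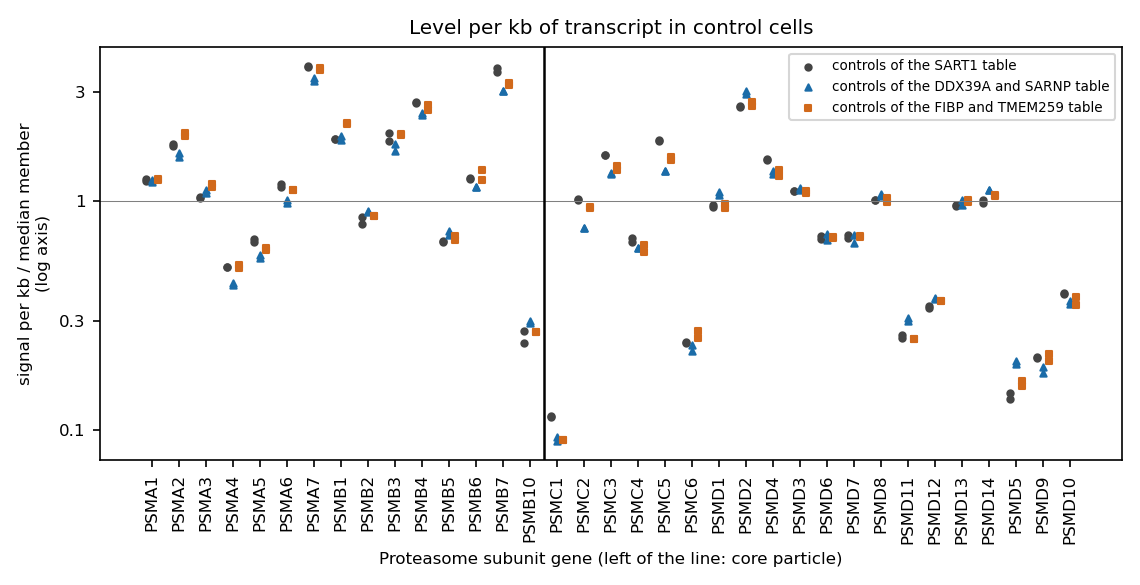
Normalized signal per kilobase of principal transcript in each of the 6 control libraries, divided by the median member of the same table (y axis, log scale), for the 35 proteasome subunit genes (x axis, core particle left of the line). Each point is 1 library, with the marker shape giving the table; PSMA7 and PSMB7 sit highest in all 3 tables, and the place of PSMC1 depends on the transcript that gives its length.

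The RefSeq promoter table (GRCh38.p14, 250 bases before to 50 bases after the annotated start) was matched to 30 of the 35 members, and no promoter of PSMA7, PSMB1, PSMB6, PSMB7 or PSMD4 was used here. The core of the antioxidant response element, TGACNNNGC on either strand, was found for 9 of the 30 members (30%), against 16.1% of 27305 genes with a promoter in the table. A gene counted when any of its promoters held the motif, with 35116 promoters in all. The 27305 genes were not limited to those tested for expression here, and the share over tested genes was not computed. The ETS motif CCGGAAG was found in 11 (36.7% against 12.2% of all genes), CCAAT in 16 (53.3% against 39.7%), and the NRF1 palindrome in 5 (16.7% against 6.98%), on either strand in each case. No overlap between these motifs was removed, and a match of letters is a description, not a bound site. The 9 members with the antioxidant response element core were PSMA4, PSMB3, PSMC4, PSMC5, PSMD1, PSMD3, PSMD5, PSMD9 and PSMD12. The windows below show this core, in capitals with up to 10 bases on each side, for 5 of these members. Each is written 5′ to 3′ on the strand of its gene, and in PSMC4 and in the second PSMD3 window the motif reads on the opposite strand. They lie at chr19:39971182-39971210 (plus strand) for PSMC4, chr2:231056896-231056916 (plus) for PSMD1, chr17:39980760-39980788 and chr17:39980830-39980856 (plus) for PSMD3, chr9:120843038-120843066 (minus) for PSMD5 and chr17:67366724-67366752 (minus) for PSMD12.
PSMC4: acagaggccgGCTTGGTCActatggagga
PSMD1: aggaggcgacTGACTGAGCag
PSMD3 upstream of the start: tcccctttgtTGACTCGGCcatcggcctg
PSMD3 downstream of the start: gtttgcagctGCTCCGTCAtcgtgcgg
PSMD5: tggctacagtTGACACGGCcctaacggag
PSMD12: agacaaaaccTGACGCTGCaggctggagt

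The direction of the members with this motif differed between siRNAs. Of the 9 members with the core in the promoter, 3 were called higher and 0 lower with SART1 siRNA 6, against 15 higher and 2 lower of the other 21 with a promoter (32.5% of all genes tested were higher and 30.5% lower). The median log2 change was 0.05 over the 9 holders and 0.18 over the other 21. With DDX39A siRNA 4, 4 holders were called higher and 1 lower, against 11 higher and 3 lower of the others (25.3% of all genes tested were higher and 23.7% lower), and the medians were 0.12 over the 9 holders and 0.12 over the other 21. With TMEM259 siRNA 5, 5 holders were called lower and 0 higher, against 1 higher and 6 lower of the others (1274 of 11768 genes tested were higher and 1410 lower, 22.8% in either direction), and the medians were -0.11 over the 9 holders and -0.09 over the other 21. These calls are on the values as the authors normalized them, and holders were not counted under other scalings. Under quantile normalization, 8 of all members were higher and 13 lower with SART1 siRNA 6. The counts were 17 and 6 with DDX39A siRNA 4, and 1 and 11 with TMEM259 siRNA 5. Holders with the other siRNAs are not given here, and no test was made of holders against the others.

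Changes of the subunit genes were small and mixed in sign. Each siRNA was set against the controls of its own table with limma on log2(normalized signal + 1). A call means an adjusted p below 0.05, with the Benjamini-Hochberg adjustment made over all genes tested. Of 350 comparisons (35 members, 10 siRNAs), 92 were called higher (26.3%, against 20.1% over all genes tested) and 52 lower (14.9% against 20%). In each called comparison the siRNA libraries and the control libraries did not overlap. With 2 libraries against 2, members without a call often did not overlap either: with SARNP siRNA 3 this held for 29 of 35 members, of which 9 were called. Non-overlap alone therefore does not set called members apart, and its share over all genes was not computed. Only 4 log2 changes exceeded 0.5 in size and none exceeded 1. PSMA1, an alpha ring subunit, was called by limma in none of the 10 comparisons against controls (log2 change -0.12 with DDX39A siRNA 1 to 0.07 with FIBP siRNA 7); the lowest adjusted p of PSMA1 was 0.051, with DDX39A siRNA 1 (unadjusted p = 0.017), the 1 comparison of the 10 with an unadjusted p below 0.05. Of the 35 members, 23 were called higher with 1 siRNA and lower with another (65.7%, against 54.7% of all genes tested in every table).

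Of the 5 targets, SART1 had the most subunit genes called the same way by both siRNAs. In all, 14 of 35 members were called higher (40%, against 22.9% of all genes tested) and 2 lower (5.71% against 20%), but under quantile normalization the split was 6 higher and 8 lower. The higher genes were PSMA3, PSMA5, PSMB1, PSMB2 and PSMB5 of the core, and PSMC2, PSMC4, PSMC6, PSMD2, PSMD7, PSMD10, PSMD11, PSMD12 and PSMD14 of the regulatory particle. PSMB4 and PSMB10 were the lower pair. With SART1 siRNA 4, 5 core genes were called higher and 2 lower (median log2 change 0.03), and 10 regulatory genes higher and 1 lower (median 0.09), while 29.5% of all genes tested were higher and 28.2% lower. With SART1 siRNA 6, 9 core genes were called higher and 2 lower (median log2 change 0.14), and 12 regulatory genes higher and 1 lower (median 0.12), while 32.5% of all genes tested were higher and 30.5% lower. The median of all genes tested was -0.01 and -0.002. Quantile normalization moved the core median to -0.06 and 0.02 and the regulatory median to 0.01 and 0.01, and with it 9 members were called higher and 10 lower with siRNA 4, and 8 higher and 13 lower with siRNA 6. With edgeR 13 members were higher and 2 lower with both siRNAs, and with DESeq2 12 and 2. The direction of the set as a whole after SART1 knockdown thus differed between quantile normalization and the other scalings. PSMD11 was no longer called for SART1 siRNA 4 under quantile normalization or without control replicate 2 (adjusted p from 0.15 to 0.38), and for SART1 siRNA 6 with edgeR, with DESeq2, without its replicate 1, without its replicate 2 or without control replicate 2 (adjusted p from 0.052 to 0.25). Under quantile normalization its log2 change with siRNA 6 was -0.02, the opposite sign.

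The siRNAs of DDX39A differed in how many subunit genes they moved. With DDX39A siRNA 1, 2 core genes were called higher and 2 lower (median log2 change -0.01), and 3 regulatory genes higher and 2 lower (median 0.03), while 17.1% of all genes tested were higher and 16.1% lower. With DDX39A siRNA 4, 9 core genes were called higher and 1 lower (median log2 change 0.13), and 11 regulatory genes higher and 3 lower (median 0.14), while 25.3% of all genes tested were higher and 23.7% lower. PSMA5, PSMC4 and PSMD7 were called higher with both siRNAs (3 members, 8.57%, against 8.67% of all genes tested) and 0 members lower (6.37% of all genes), a share near that of all genes, and under quantile normalization 1 member was higher and 2 were lower with both. The members called by both siRNAs numbered 0 without control replicate 1, 1 without control replicate 2 and 0 with DESeq2. With siRNA 1 alone, quantile normalization gave 3 members higher and 5 lower.

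The siRNAs of SARNP gave different counts of calls in the regulatory particle. With SARNP siRNA 3, 1 core gene was called higher and 2 lower (median log2 change -0.02), and 0 regulatory genes higher and 6 lower (median -0.05), while 20.3% of all genes tested were higher and 21% lower. With SARNP siRNA 9, 2 core genes were called higher and 2 lower (median log2 change -0.02), and 9 regulatory genes higher and 2 lower (median 0.09), while 29% of all genes tested were higher and 29.4% lower. PSMB10 was higher with both siRNAs (1 member, 2.86%, against 7.17% of all genes tested) and PSMD1 lower with both (1 member, 2.86% against 7.15%), while quantile normalization gave 2 higher and 1 lower with both and DESeq2 0 and 1. For single siRNAs, quantile normalization gave 6 members higher and 7 lower with siRNA 3, where the core median was 0.02, and 15 higher and 4 lower with siRNA 9.

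FIBP knockdown moved 6 subunit genes the same way with both siRNAs, and the 4 higher ones all belong to the regulatory particle. With FIBP siRNA 6, 3 core genes were called higher and 1 lower (median log2 change 0.08), and 6 regulatory genes higher and 2 lower (median 0.07), while 1269 of 11768 genes tested were higher and 1391 lower, 22.6% in either direction. With FIBP siRNA 7, 2 core genes were called higher and 2 lower (median log2 change -0.01), and 6 regulatory genes higher and 3 lower (median 0.03), while 16.6% of all genes tested were higher and 17.5% lower. PSMC4, PSMD7, PSMD8 and PSMD11 were higher with both siRNAs (4 members, 11.4%, against 4.68% of all genes tested), and PSMA2 and PSMD1 were lower with both (2 members, 5.71% against 4.39%). The split was 4 higher and 1 lower under quantile normalization, and 4 and 0 with DESeq2. The 6 members fell to 3 without FIBP siRNA 6 replicate 1 or control replicate 1, and to 2 without FIBP siRNA 7 replicate 1, FIBP siRNA 7 replicate 2 or control replicate 2. The core median with siRNA 7 was 0.0032 under quantile normalization.

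By the main scaling, TMEM259 siRNA 5 was the siRNA with the most subunit genes called lower, and siRNA 6 shared 1 of those calls. With TMEM259 siRNA 5, 1 core gene was called higher and 8 lower (median log2 change -0.11), and 0 regulatory genes higher and 7 lower (median -0.06), while 1274 of 11768 genes tested were higher and 1410 lower, 22.8% in either direction. The single higher gene was PSMB10. With TMEM259 siRNA 6, 0 core genes were called higher and 0 lower (median log2 change 0.03), and 1 regulatory gene higher and 3 lower (median 0.01), while 9.36% of all genes tested were higher and 10% lower. Quantile normalization turned that regulatory median to -0.02. PSMD13 was the only member lower with both (1 member, 2.86%, against 2.41% of all genes tested), and 0 were higher with both (2.56% of all genes). The targeted transcript was reduced further with siRNA 5 than with siRNA 6, and whether this bears on the subunit genes was not tested. The number of members called with siRNA 5 ranged from 7 to 16 over the alternatives, against 16. Quantile normalization gave 1 member higher and 11 lower with siRNA 5, fewer lower than the 13 it gave with SART1 siRNA 6. With DESeq2 the split for siRNA 5 was 0 higher and 10 lower.

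A few members were called by both siRNAs of a target but with opposite signs. They were PSMB6 for DDX39A (1 member, against 5.16% of all genes tested), PSMD3 and PSMD12 for SARNP (2 members, against 13%) and PSMA4 for FIBP (1 member, against 2.5%). There was none for SART1 (2.42% of all genes) or TMEM259 (2.17%).

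**Figure D2:**
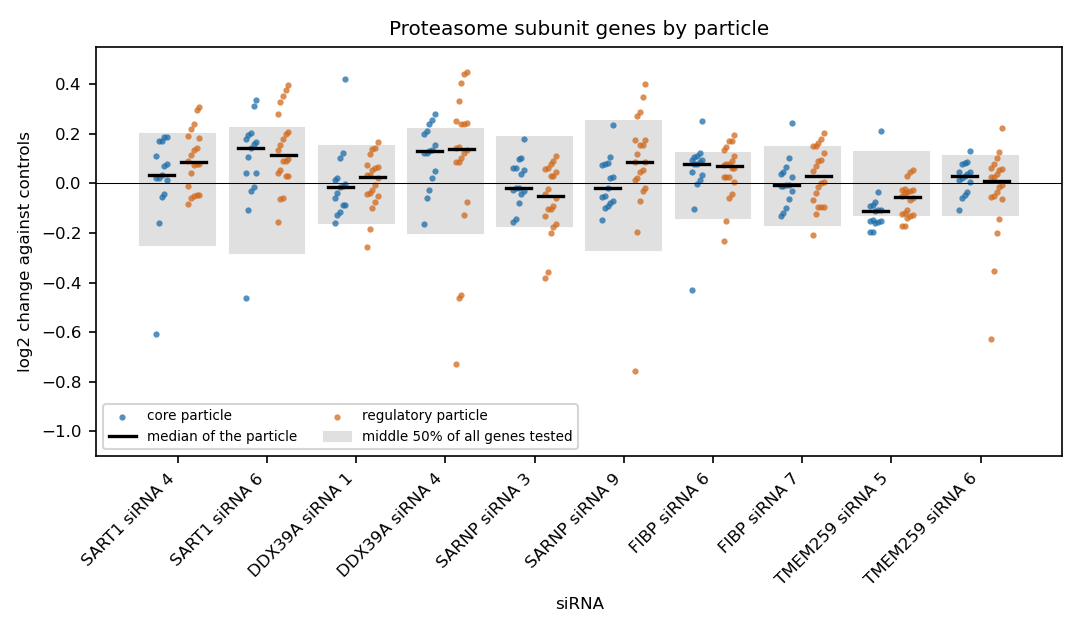
Log2 change against the controls of the same table (y axis) of each core particle gene and each regulatory particle gene for the 10 siRNAs (x axis). Each point is 1 gene, black bars are the medians of the particle and grey boxes span the middle 50% of all genes tested; the medians run from -0.11 to 0.14, and the outlying points include PSMB10 with SART1 siRNAs, PSMD4 with SARNP siRNA 9 and PSMD10 with DDX39A siRNA 4 and TMEM259 siRNA 6.

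**Figure D3:**
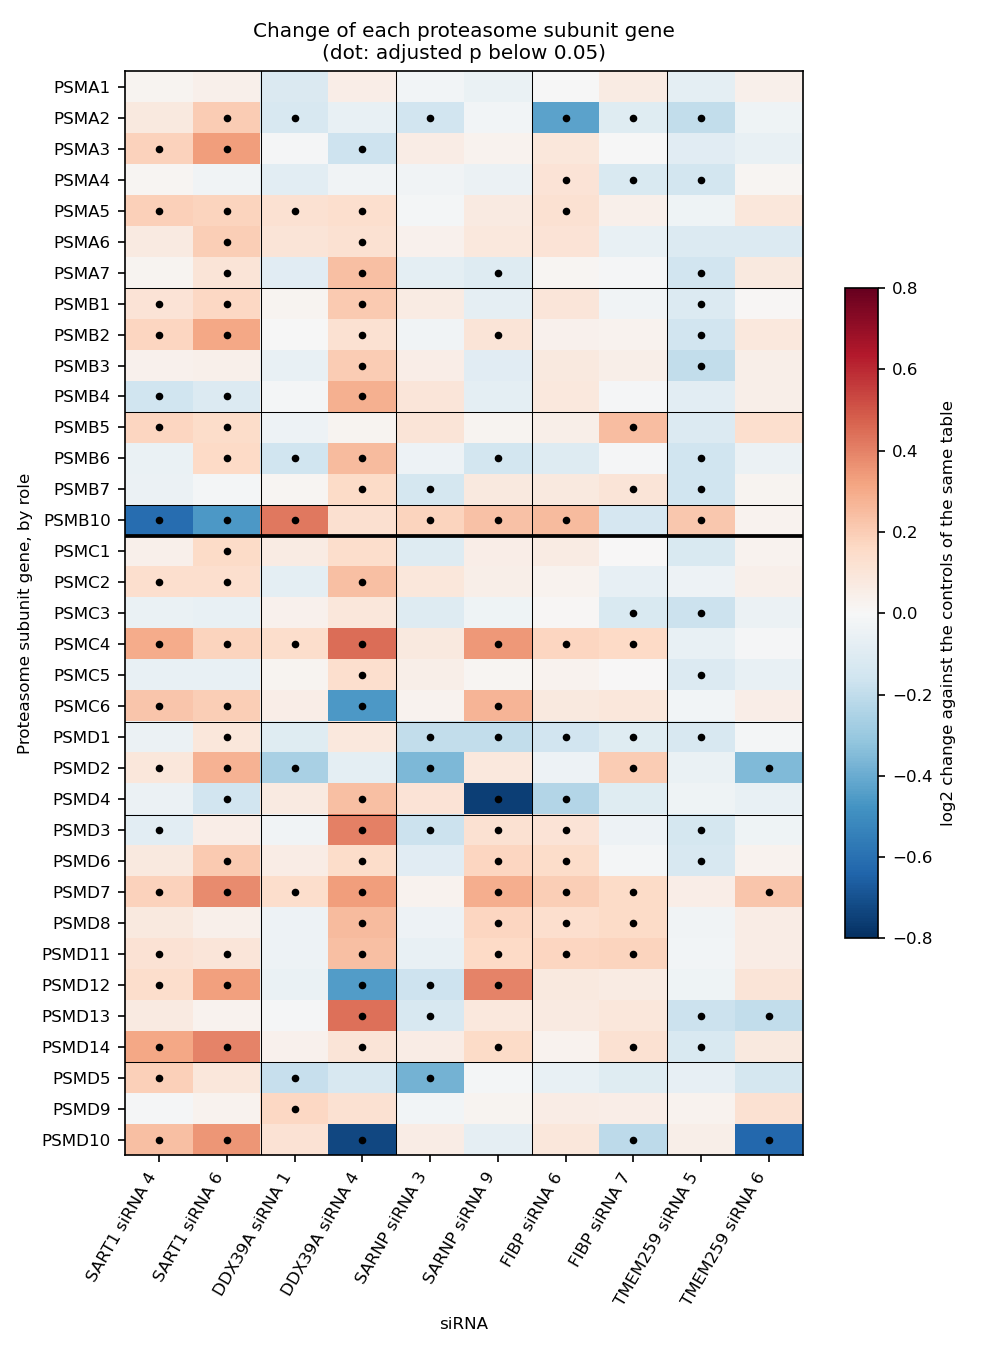
Log2 change (colour, red higher and blue lower than the controls of the same table) of the 35 proteasome subunit genes, ordered by role (y axis), for the 10 siRNAs (x axis), with a dot where the adjusted p was below 0.05. PSMC4 and PSMD7 are red with dots for 7 and 8 siRNAs, and PSMB10 is blue for both siRNAs of SART1 and red for DDX39A siRNA 1.

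In the alpha ring, which forms the gate of the core particle, the genes called the same way by both siRNAs of a target were PSMA3 and PSMA5, higher, and PSMA2, lower. PSMA3 stood at 3249.6 and 3239.9 in the SART1 controls, 3584 and 3806 with siRNA 4 and 4003 and 4200.2 with siRNA 6. The 4 knockdown libraries lay above both controls, with log2 changes of 0.19 (SE 0.04, adjusted p = 3.4e-04) and 0.34 (SE 0.04, adjusted p = 1.2e-07). With DDX39A siRNA 4 the gene was lower, at 1503 and 1685 against 1809 and 1757 in the controls of that table (log2 change -0.16, SE 0.05, adjusted p = 0.0081). PSMA5 was higher with both siRNAs of SART1 and of DDX39A. Its signal was 7958 and 8208 in the SART1 controls, 9017 and 9405 with siRNA 4 and 9043 and 9278 with siRNA 6, again without overlap (log2 changes 0.19, SE 0.03, adjusted p = 4.7e-05, and 0.18, SE 0.03, adjusted p = 6.5e-05). In the DDX39A table it was 3517 and 3633 in the controls, 3946 and 3833 with siRNA 1 and 3808 and 4049 with siRNA 4, also without overlap (log2 changes 0.12, SE 0.04, adjusted p = 0.033, and 0.14, SE 0.04, adjusted p = 0.012). PSMA3 was no longer called for DDX39A siRNA 4 without its replicate 1 or without control replicate 1 (adjusted p from 0.076 to 0.29). PSMA5 lost its call for SART1 siRNA 6 under quantile normalization (adjusted p = 0.29), and for DDX39A siRNA 1 with DESeq2, without its replicate 1, without control replicate 1 or without control replicate 2 (adjusted p from 0.058 to 0.21). It also lost the call for DDX39A siRNA 4 without its replicate 2 or without control replicate 1 (adjusted p from 0.11 to 0.18).

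PSMA2 gave the largest drop of an alpha subunit. It stood at 5128 and 4990.3 in the FIBP controls, 3633 and 3875 with siRNA 6 and 4666 and 4785 with siRNA 7. Libraries of both siRNAs lay below the controls, but siRNA 6 far more so (log2 changes -0.43, SE 0.04, adjusted p = 4.8e-12, and -0.10, SE 0.04, adjusted p = 0.046), and the difference of siRNA 7 from siRNA 6 was 0.33 (SE 0.04, adjusted p = 2.1e-09). PSMA2 was also called lower with TMEM259 siRNA 5 (4396 and 4427, log2 change -0.20), DDX39A siRNA 1 (-0.13) and SARNP siRNA 3 (-0.16), and higher with SART1 siRNA 6 (0.20). Over the 10 siRNAs, the log2 change of PSMA4 ran from -0.15 with TMEM259 siRNA 5 to 0.11 with FIBP siRNA 6, of PSMA6 from -0.11 with TMEM259 siRNA 5 to 0.20 with SART1 siRNA 6 and of PSMA7 from -0.15 with TMEM259 siRNA 5 to 0.24 with DDX39A siRNA 4. These 3 alpha subunits were called in 3, 2 and 4 comparisons. A gene antisense to PSMA3 is listed, and whether counting used strand is not stated in the labels; PSMA2 and PSMA6 have annotated pseudogenes whose reads could be shared with them. PSMA2 was no longer called for FIBP siRNA 7 under quantile normalization, with DESeq2, with the replicate block, without its replicate 1, without its replicate 2, without control replicate 1 or without control replicate 2 (adjusted p from 0.057 to 0.26), and for DDX39A siRNA 1 without its replicate 1, without its replicate 2 or without control replicate 2 (adjusted p from 0.055 to 0.19). It also lost the call for SARNP siRNA 3 without control replicate 2 (adjusted p = 0.074), and for SART1 siRNA 6 under quantile normalization (adjusted p = 0.35).

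Among the structural beta subunits, which close the inner rings without an active site, PSMB2 and PSMB4 moved in opposite directions after SART1 knockdown. PSMB2 was 6904 and 7408 in the controls, 7755 and 8355 with siRNA 4 and 8671 and 9076 with siRNA 6. Every knockdown library exceeded both controls (log2 changes 0.17, SE 0.04, adjusted p = 7.7e-04, and 0.31, SE 0.04, adjusted p = 3.6e-07). PSMB4 was 8328 and 8408 in the controls, 7444 and 7543 with siRNA 4 and 7586 and 7939.8 with siRNA 6, and here all 4 knockdown libraries lay below (log2 changes -0.16, SE 0.03, adjusted p = 2.9e-04, and -0.11, SE 0.03, adjusted p = 0.0072). With DDX39A siRNA 4, PSMB4 was higher, at 4541 and 4893 against 3919 and 3838 (log2 change 0.28, SE 0.05, adjusted p = 2.2e-06). PSMB3 stood at 2609 and 2636 in the TMEM259 controls and 2279 and 2295 with siRNA 5, below both controls (log2 change -0.20, SE 0.04, adjusted p = 6.6e-04), and at 2806 and 2609.9 with siRNA 6, which was not called. PSMB1 was called higher with 3 siRNAs and lower with 1, over a range of -0.11 with TMEM259 siRNA 5 to 0.21 with DDX39A siRNA 4. PSMB2 was no longer called for SART1 siRNA 4 under quantile normalization (adjusted p = 0.11). PSMB4 lost its call for SART1 siRNA 6 without its replicate 1 or without control replicate 2 (adjusted p from 0.053 to 0.13).

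The constitutive catalytic subunits PSMB5, PSMB6 and PSMB7, which cut after hydrophobic, acidic and basic residues, did not move as a trio. PSMB5 was 2803 and 2767 in the SART1 controls, 3199 and 3066 with siRNA 4 and 3006 and 3151 with siRNA 6. The knockdown libraries lay above the controls for this gene (log2 changes 0.17, SE 0.04, adjusted p = 0.0010, and 0.14, SE 0.04, adjusted p = 0.0036). FIBP siRNA 7 gave its largest change, 1856 and 1824 against 1588 and 1516 (log2 change 0.25, SE 0.05, adjusted p = 1.1e-04), while FIBP siRNA 6 gave 1553 and 1651 and no call. PSMB6 went in opposite directions with the siRNAs of DDX39A: 1648 and 1652 in the controls, 1519.7 and 1435 with siRNA 1 and 1851 and 2091 with siRNA 4. Libraries of siRNA 1 lay below the controls and those of siRNA 4 above (log2 changes -0.16, SE 0.05, adjusted p = 0.018, and 0.25, SE 0.05, adjusted p = 1.4e-04). With SART1 siRNA 6 PSMB6 was higher (3862 and 3867 against 3441 and 3478, log2 change 0.16) and with SART1 siRNA 4 it was not called (3327 and 3336). PSMB7 was 4964 and 4963 in the DDX39A and SARNP controls, 5273 and 5799.8 with DDX39A siRNA 4 (log2 change 0.16) and 4436 and 4562 with SARNP siRNA 3 (log2 change -0.14). It was higher with FIBP siRNA 7 (0.10) and lower with TMEM259 siRNA 5 (-0.16). PSMB5 was no longer called for SART1 siRNA 4 under quantile normalization (adjusted p = 0.054), and for SART1 siRNA 6 under quantile normalization or without its replicate 2 (adjusted p from 0.071 to 0.62). PSMB6 lost its call for DDX39A siRNA 1 with DESeq2, without its replicate 2, without control replicate 1 or without control replicate 2 (adjusted p from 0.080 to 0.17), and for SART1 siRNA 6 under quantile normalization (adjusted p = 0.57). PSMB7 did not keep its call for DDX39A siRNA 4 without its replicate 2 (adjusted p = 0.19), and for SARNP siRNA 3 without its replicate 1, without control replicate 1 or without control replicate 2 (adjusted p from 0.064 to 0.10). It also lost the call for FIBP siRNA 7 without its replicate 2, without control replicate 1 or without control replicate 2 (adjusted p from 0.068 to 0.18).

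PSMB10, the interferon-inducible subunit that replaces PSMB7 in immunoproteasomes, gave the largest changes of the core genes. In the SART1 table it stood at 1061 and 941 in the controls, 635 and 675 with siRNA 4 and 714 and 736 with siRNA 6. All 4 knockdown libraries were below both controls, with log2 changes of -0.61 (SE 0.06, adjusted p = 2.4e-08) and -0.46 (SE 0.06, adjusted p = 1.3e-06), the largest drops of any member in that table. In the DDX39A and SARNP table it was 608 and 595 in the controls, 860.4 and 754 with DDX39A siRNA 1, 663 and 654 with DDX39A siRNA 4, 684 and 677 with SARNP siRNA 3 and 727 and 688 with SARNP siRNA 9. It was called higher with DDX39A siRNA 1 (0.42, SE 0.07, adjusted p = 4.1e-06), SARNP siRNA 3 (0.18, SE 0.07, adjusted p = 0.030) and SARNP siRNA 9 (0.23, SE 0.07, adjusted p = 0.0028), and not called with DDX39A siRNA 4 (0.13, SE 0.07, adjusted p = 0.10). In the FIBP and TMEM259 table the controls read 567 and 567, FIBP siRNA 6 at 673 and 676 and TMEM259 siRNA 5 at 625 and 692, both called higher (log2 changes 0.25 and 0.21). FIBP siRNA 7 (511 and 524) and TMEM259 siRNA 6 (616 and 544) were not called. PSMB10 was thus called in 7 of 10 comparisons, the most of any core gene, on one of the lowest control levels per kilobase of the 35. Over all genes and siRNAs, 20.1% of comparisons were called higher and 20% lower. PSMB10 was no longer called for SARNP siRNA 3 with DESeq2, without its replicate 1, without its replicate 2, without control replicate 1 or without control replicate 2 (adjusted p from 0.074 to 0.15), and for FIBP siRNA 6 with DESeq2 (adjusted p = 0.051). It also lost the call for TMEM259 siRNA 5 with DESeq2, without its replicate 2, without control replicate 1 or without control replicate 2 (adjusted p from 0.097 to 0.30).

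The ATPase ring unfolds substrates and feeds them into the core. PSMC4 was higher with 7 of the 10 siRNAs and lower with none (over all genes and siRNAs, 20.1% of comparisons were called higher and 20% lower). It read 3518 and 3411 in the SART1 controls, 4228 and 4274 with siRNA 4 and 3943 and 3899 with siRNA 6, above the controls in each knockdown library (log2 changes 0.30, SE 0.04, adjusted p = 3.3e-07, and 0.18, SE 0.04, adjusted p = 1.9e-04). In the second table the controls read 1660.3 and 1656, DDX39A siRNA 1 at 1884 and 1772, DDX39A siRNA 4 at 2215 and 2312, SARNP siRNA 3 at 1779 and 1726 and SARNP siRNA 9 at 2096 and 2124. DDX39A siRNA 4 was highest (0.45, SE 0.05, adjusted p = 8.1e-10), followed by SARNP siRNA 9 (0.35, SE 0.05, adjusted p = 1.3e-07) and DDX39A siRNA 1 (0.14, SE 0.05, adjusted p = 0.024), and SARNP siRNA 3 was not called (0.08). In the third, the controls read 1775 and 1657, FIBP siRNA 6 at 1918 and 1944 and FIBP siRNA 7 at 1954 and 1885, both above the controls (log2 changes 0.17, SE 0.05, adjusted p = 0.0066, and 0.16, SE 0.05, adjusted p = 0.0067), while the siRNAs of TMEM259 gave -0.06 and -0.01 and no call. PSMC4 was no longer called for SART1 siRNA 6 under quantile normalization (adjusted p = 0.25), and for DDX39A siRNA 1 under quantile normalization, with DESeq2, without its replicate 1, without control replicate 1 or without control replicate 2 (adjusted p from 0.050 to 0.23). It also lost the call for FIBP siRNA 6 without control replicate 2 (adjusted p = 0.17), and for FIBP siRNA 7 without its replicate 1 or without control replicate 2 (adjusted p from 0.076 to 0.17).

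PSMC6, another ATPase of the ring, was higher after SART1 knockdown and with SARNP siRNA 9 but lower with DDX39A siRNA 4. Its signal was 1683 and 1703 in the SART1 controls, 1894 and 2051 with siRNA 4 and 1849.8 and 2039 with siRNA 6 (log2 changes 0.22, SE 0.05, adjusted p = 7.1e-04, and 0.20, SE 0.05, adjusted p = 0.0016). In the other table it was 804 and 855 in the controls, 836 and 885 with DDX39A siRNA 1, 598 and 606 with DDX39A siRNA 4, 841 and 850.2 with SARNP siRNA 3 and 1002 and 1004 with SARNP siRNA 9. DDX39A siRNA 4 lay below and SARNP siRNA 9 above both controls (log2 changes -0.46, SE 0.06, adjusted p = 4.2e-08, and 0.27, SE 0.06, adjusted p = 1.8e-04). Of the other ATPases, PSMC2 was called higher with 3 siRNAs and lower with 0 (range -0.08 with DDX39A siRNA 1 to 0.24 with DDX39A siRNA 4), and PSMC1 higher with 1. PSMC3 was called lower with 2 siRNAs and higher with none (range -0.17 with TMEM259 siRNA 5 to 0.09 with DDX39A siRNA 4), and PSMC5 higher with 1 and lower with 1. PSMC6 was no longer called for SART1 siRNA 6 without its replicate 2 (adjusted p = 0.076).

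The base also holds the scaffolds PSMD1 and PSMD2 and the ubiquitin receptor PSMD4, which captures the ubiquitin chain of a substrate. PSMD4 gave the largest change of any member against controls. It stood at 3064 and 2981 in the DDX39A and SARNP controls, 1696 and 1889.6 with SARNP siRNA 9 and 3239 and 3291 with SARNP siRNA 3. Both libraries of siRNA 9 lay far below the controls (-0.76, SE 0.05, adjusted p = 2.5e-16), and siRNA 3 was not called (0.11, SE 0.05, adjusted p = 0.059). DDX39A siRNA 4 gave 3504 and 3637, above both controls (0.24, SE 0.05, adjusted p = 6.7e-05). In the FIBP table PSMD4 was 3206 and 3032 in the controls and 2608 and 2705 with siRNA 6, below both (-0.23, SE 0.04, adjusted p = 4.0e-05), and it was lower with SART1 siRNA 6 (-0.16). PSMD4 was no longer called for SART1 siRNA 6 without its replicate 2 (adjusted p = 0.079).

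PSMD2, which docks shuttle factors and ubiquitin, was lower with 3 siRNAs and higher with 3. In the DDX39A and SARNP table it was 17599.9 and 17038 in the controls, 14652 and 14310.3 with DDX39A siRNA 1, 13684 and 13325 with SARNP siRNA 3 and 17966 and 18829.6 with SARNP siRNA 9. The first and the second of these siRNAs lay below both controls (-0.26, SE 0.04, adjusted p = 6.8e-06, and -0.36, SE 0.04, adjusted p = 6.5e-09), and SARNP siRNA 9 was not called. In the third table it was 16248 and 15638 in the controls, 18107 and 18609.5 with FIBP siRNA 7 and 12289 and 12672 with TMEM259 siRNA 6, above and below the controls respectively (0.20, SE 0.03, adjusted p = 1.5e-06, and -0.35, SE 0.03, adjusted p = 1.3e-11). SART1 siRNAs 4 and 6 gave log2 changes of 0.09 and 0.28. PSMD1, the other scaffold, was lower with both siRNAs of SARNP and of FIBP. It read 5901 and 6112 in the controls, 5294 and 5170.4 with SARNP siRNA 3 and 5154 and 5329.6 with SARNP siRNA 9, all 4 below (log2 changes -0.20, SE 0.04, adjusted p = 1.6e-04, and -0.20, SE 0.04, adjusted p = 1.0e-04). For FIBP it read 5619 and 5379 in the controls, 4816 and 5094 with siRNA 6 and 5176 and 5115 with siRNA 7 (log2 changes -0.15, SE 0.04, adjusted p = 0.0023, and -0.10, SE 0.04, adjusted p = 0.044), also without overlap. PSMD2 was no longer called for SART1 siRNA 4 without control replicate 1 (adjusted p = 0.064). PSMD1 lost its call for FIBP siRNA 6 without its replicate 1 or without control replicate 1 (adjusted p from 0.085 to 0.098), and for FIBP siRNA 7 with DESeq2, with the replicate block, without its replicate 1, without its replicate 2 or without control replicate 1 (adjusted p from 0.061 to 0.35).

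PSMD5, PSMD9 and PSMD10 are chaperones that help to build the base and leave the finished particle, and PSMD10 (gankyrin) moved most among them. In the SART1 table PSMD10 was 1954 and 1969 in the controls, 2279.7 and 2349.6 with siRNA 4 and 2552 and 2457 with siRNA 6, above the controls throughout (log2 changes 0.24, SE 0.04, adjusted p = 4.0e-05, and 0.35, SE 0.04, adjusted p = 1.4e-07). With DDX39A siRNA 4 it was 581 and 543 against 917 and 945, well below (-0.73, SE 0.06, adjusted p = 8.9e-13), while siRNA 1 gave 1031 and 990.1 and no call (0.12). With TMEM259 siRNA 6 it was 608 and 665 against 1026 and 942, again well below (-0.63, SE 0.06, adjusted p = 9.9e-11), while siRNA 5 gave 1013 and 1016 and no call (0.05). Each of these large drops was thus seen with 1 siRNA of its target and not with the other. FIBP siRNA 7 gave 846 and 854 (-0.21, SE 0.06, adjusted p = 0.0057). PSMD5, whose promoter window is printed above, ranged from -0.38 with SARNP siRNA 3 to 0.19 with SART1 siRNA 4 and was called in 3 comparisons, and PSMD9 ranged from -0.02 with SARNP siRNA 3 to 0.17 with DDX39A siRNA 1 and was called in 1. PSMD10 has 3 annotated pseudogenes. PSMD10 was no longer called for FIBP siRNA 7 without control replicate 1 (adjusted p = 0.15).

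**Figure D4:**
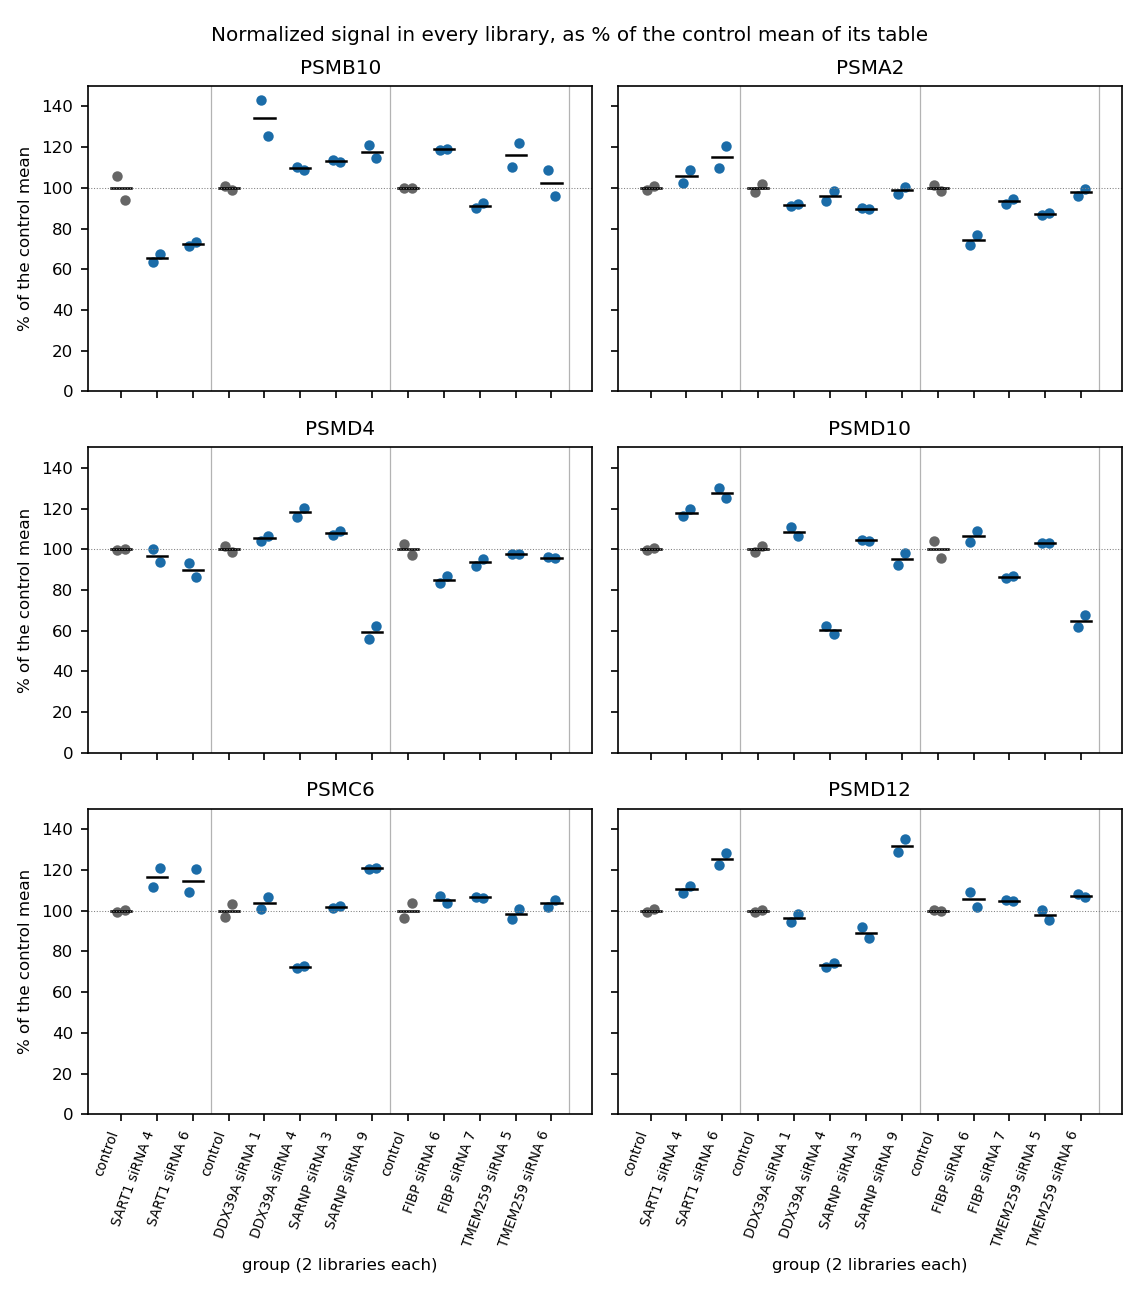
Normalized signal of PSMB10, PSMA2, PSMD4, PSMD10, PSMC6 and PSMD12 in every library, as % of the control mean of the same table (y axis), by group (x axis, vertical lines between tables). Points are libraries and bars group means; SARNP siRNA 9 lies low for PSMD4, DDX39A siRNA 4 and TMEM259 siRNA 6 for PSMD10, and FIBP siRNA 6 for PSMA2.

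The lid removes ubiquitin from substrates. PSMD7, the structural partner of the deubiquitinase, was higher with 8 of 10 siRNAs, the most of any member, and its log2 change was above 0 with all 10. Over all genes and siRNAs, 20.1% of comparisons were called higher, and the share of genes called with as many siRNAs was not computed. The siRNAs of a table share their controls, so the 10 comparisons are not independent. In the SART1 table PSMD7 was 3809.6 and 3707 in the controls, 4249 and 4287 with siRNA 4 and 4899.7 and 4867 with siRNA 6 (log2 changes 0.18, SE 0.04, adjusted p = 1.3e-04, and 0.38, SE 0.04, adjusted p = 3.5e-09), with no overlap. In the DDX39A and SARNP table the controls read 1842 and 1986, DDX39A siRNA 1 at 2067 and 2152, DDX39A siRNA 4 at 2376 and 2447, SARNP siRNA 3 at 1954 and 1953 and SARNP siRNA 9 at 2352 and 2320.1. Of these, 3 siRNAs were called (0.14, SE 0.05, adjusted p = 0.021, 0.33, SE 0.05, adjusted p = 3.3e-07, and, for SARNP siRNA 9, 0.29, SE 0.05, adjusted p = 3.3e-06), and SARNP siRNA 3 was not. In the last table the controls read 2035 and 2026, FIBP siRNA 6 at 2359.6 and 2291, FIBP siRNA 7 at 2293 and 2219, TMEM259 siRNA 5 at 2092 and 2126 and TMEM259 siRNA 6 at 2392 and 2345. All but TMEM259 siRNA 5 were called (log2 changes 0.20, SE 0.04, adjusted p = 7.6e-04, 0.15, SE 0.04, adjusted p = 0.0060, and 0.22, SE 0.04, adjusted p = 2.2e-04). PSMD7 was no longer called for DDX39A siRNA 1 under quantile normalization, with DESeq2, without its replicate 2 or without control replicate 1 (adjusted p from 0.052 to 0.29), and for FIBP siRNA 7 without its replicate 1 (adjusted p = 0.073).

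PSMD14, the deubiquitinase itself, was higher after SART1 knockdown. It stood at 6195 and 6387 in the controls, 7749 and 7844 with siRNA 4 and 8111 and 8449 with siRNA 6. The groups did not overlap, and the log2 changes were 0.31 (SE 0.03, adjusted p = 4.8e-08) and 0.40 (SE 0.03, adjusted p = 7.0e-10). PSMD11, a lid subunit that links the lid to the base and core, was 1780.1 and 1766 in the FIBP controls, 2104 and 1893 with siRNA 6 and 1933 and 2088 with siRNA 7. Both siRNAs lay above the controls (log2 changes 0.17, SE 0.05, adjusted p = 0.011, and 0.18, SE 0.05, adjusted p = 0.0044). The lid subunit PSMD13 was 3499 and 3411 in the TMEM259 controls, 3011 and 3121 with siRNA 5 and 2953 and 3069 with siRNA 6, below the controls with both (log2 changes -0.17, SE 0.04, adjusted p = 0.0016, and -0.20, SE 0.04, adjusted p = 3.8e-04). With DDX39A siRNA 4 it was 4335 and 4588 against 3211 and 3368, above both controls (0.44, SE 0.05, adjusted p = 2.4e-10). PSMD11 was no longer called for FIBP siRNA 6 without its replicate 1, without control replicate 1 or without control replicate 2 (adjusted p from 0.056 to 0.32), and for FIBP siRNA 7 without its replicate 2 (adjusted p = 0.12).

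PSMD3 and PSMD12, lid subunits with antioxidant response element cores in the promoter windows printed above, moved apart from each other with DDX39A siRNA 4. PSMD3 stood at 4114 and 4022 in the controls, 4130.1 and 3867 with DDX39A siRNA 1, 5217 and 5562 with DDX39A siRNA 4, 3503 and 3709 with SARNP siRNA 3 and 4426 and 4417 with SARNP siRNA 9. DDX39A siRNA 4 was the highest (0.41, SE 0.05, adjusted p = 1.5e-09), and the siRNAs of SARNP lay on opposite sides of the controls (-0.17, SE 0.05, adjusted p = 0.0019, and 0.12, SE 0.05, adjusted p = 0.022). PSMD12 stood at 2755 and 2779.8 in the controls, 2612 and 2727 with DDX39A siRNA 1, 2003 and 2054 with DDX39A siRNA 4, 2546 and 2391 with SARNP siRNA 3 and 3562 and 3739.5 with SARNP siRNA 9. Here DDX39A siRNA 4 was the lowest (-0.45, SE 0.05, adjusted p = 3.1e-10), and SARNP siRNA 9 was above and SARNP siRNA 3 below the controls (0.40, SE 0.05, adjusted p = 2.8e-09, and -0.17, SE 0.05, adjusted p = 0.0042). PSMC4 and PSMD1, whose windows are printed beside them, were among the genes most often called, the first higher and the second mostly lower. Among the holders without a printed window, PSMA4, PSMB3, PSMC5 and PSMD9 were called in 3, 2, 2 and 1 of the 10 comparisons. Of the lid genes not named so far, PSMD6 was called higher with 4 siRNAs and lower with 1 (range -0.13 with TMEM259 siRNA 5 to 0.21 with SART1 siRNA 6), and PSMD8 higher with 4 and lower with 0 (range -0.04 with SARNP siRNA 3 to 0.25 with DDX39A siRNA 4). PSMD3 was no longer called for SARNP siRNA 3 without its replicate 1 (adjusted p = 0.065), and for SARNP siRNA 9 without its replicate 1, without its replicate 2 or without control replicate 2 (adjusted p from 0.067 to 0.13). PSMD12 lost its call for SARNP siRNA 3 without its replicate 2 (log2 change -0.12), and for SART1 siRNA 4 under quantile normalization (log2 change 0.04, limma, adjusted p = 0.33).

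The siRNAs of a target were also set against each other directly. The log2 change of such a comparison uses no control library. Its standard error and adjusted p rest on the spread in all libraries fitted together, controls included. SART1 siRNA 6 against siRNA 4 gave 6 core genes higher and 0 lower and 8 regulatory genes higher and 2 lower (19.4% of all genes tested were higher and 19.1% lower), and quantile normalization gave 4 members higher and 4 lower in all, with PSMB6 (0.21, SE 0.04, adjusted p = 6.2e-05) and PSMD7 (0.19, SE 0.04, adjusted p = 1.4e-04) furthest up and PSMC4 (-0.12, SE 0.04, adjusted p = 0.015) and PSMD4 (-0.11, SE 0.04, adjusted p = 0.036) down. DDX39A siRNA 4 against siRNA 1 gave 8 core genes higher and 2 lower and 11 regulatory genes higher and 3 lower (25.6% of all genes tested were higher and 25% lower). PSMD13 (0.45, SE 0.05, adjusted p = 1.5e-10) and PSMD3 (0.43, SE 0.05, adjusted p = 3.4e-10) were highest in siRNA 4 against siRNA 1, and PSMD10 (-0.85, SE 0.06, adjusted p = 1.4e-14) and PSMC6 (-0.51, SE 0.06, adjusted p = 3.9e-09) lowest. For SARNP, siRNA 9 against siRNA 3 gave 3 core genes higher and 3 lower and 13 regulatory genes higher and 1 lower (31.7% of all genes tested were higher and 32.5% lower), and quantile normalization gave 14 members higher and 7 lower in all, and the median regulatory gene differed by 0.22 on the log2 scale. PSMD12 (0.56, SE 0.05, adjusted p = 3.0e-13) and PSMD2 (0.45, SE 0.04, adjusted p = 9.4e-12) led upward and PSMD4 (-0.87, SE 0.05, adjusted p = 2.2e-18) and PSMB4 (-0.18, SE 0.05, adjusted p = 8.0e-04) downward. PSMC4 was no longer called for SART1 siRNA 6 minus SART1 siRNA 4 without SART1 siRNA 6 replicate 1 or without SART1 siRNA 6 replicate 2 (adjusted p from 0.053 to 0.092). PSMD4 lost its call for SART1 siRNA 6 minus SART1 siRNA 4 with DESeq2, without SART1 siRNA 4 replicate 1 or without SART1 siRNA 6 replicate 2 (adjusted p from 0.091 to 0.46).

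FIBP siRNA 7 against siRNA 6 gave 2 core genes higher and 5 lower and 3 regulatory genes higher and 5 lower (17.9% of all genes tested were higher and 17.7% lower). PSMA2 (0.33, SE 0.04, adjusted p = 2.1e-09) and PSMD2 (0.25, SE 0.03, adjusted p = 2.1e-08) were higher in siRNA 7, and PSMB10 (-0.38, SE 0.07, adjusted p = 2.5e-05) and PSMD10 (-0.30, SE 0.06, adjusted p = 9.1e-05) lower. TMEM259 siRNA 6 against siRNA 5 gave 11 core genes higher and 1 lower and 7 regulatory genes higher and 2 lower (16.5% of all genes tested were higher and 15.6% lower), and quantile normalization gave 10 members higher and 2 lower in all, and the median core gene differed by 0.13. PSMB5 (0.24, SE 0.05, adjusted p = 1.4e-04) and PSMB3 (0.24, SE 0.04, adjusted p = 2.1e-05) were higher in siRNA 6, and PSMD10 (-0.67, SE 0.06, adjusted p = 5.4e-12) and PSMD2 (-0.30, SE 0.03, adjusted p = 3.9e-10) lower. In each of the 5 targets the siRNAs therefore differed for several subunit genes, as they did for many other genes. The share of members called was 57.1% for SARNP, below the 64.1% of all genes tested. It was 45.7% against 38.5% for SART1 and 68.6% against 50.6% for DDX39A. For TMEM259, 21 of 35 members were called, while 16.5% of all genes tested were higher and 15.6% lower. For FIBP, 15 of 35 were called, while 17.9% of all genes tested were higher and 17.7% lower.

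Targets that share a table were compared as the mean of their siRNAs. Here too the control libraries entered the estimate of the spread but not the log2 change. SARNP against DDX39A gave 1 core gene higher and 7 lower and 3 regulatory genes higher and 8 lower (26.1% of all genes tested were higher and 27.5% lower), and quantile normalization gave 7 members higher and 12 lower in all. PSMD12 (0.37, SE 0.03, adjusted p = 5.0e-12) and PSMC6 (0.36, SE 0.04, adjusted p = 4.9e-09) were higher after SARNP knockdown, and PSMD4 (-0.48, SE 0.03, adjusted p = 7.0e-15) and PSMD13 (-0.24, SE 0.03, adjusted p = 6.2e-08) lower. TMEM259 against FIBP gave 1 core gene higher and 6 lower and 1 regulatory gene higher and 10 lower (2214 of 11768 genes tested were higher and 2152 lower, 37.1% in either direction). PSMA2 (0.15, SE 0.03, adjusted p = 2.4e-05) and PSMD4 (0.12, SE 0.03, adjusted p = 0.0018) were higher after TMEM259 knockdown, and PSMD2 (-0.28, SE 0.02, adjusted p = 5.0e-14) and PSMD13 (-0.27, SE 0.03, adjusted p = 4.6e-10) lower. Since the siRNAs of a target differ as described, such a mean can rest on 1 of them: PSMD4 and PSMD12 in the first comparison and PSMA2 in the second are examples.

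The other genes of the pathway were read from 6 lists with 47 measured genes: assembly chaperones, activators and the inhibitor of the core, associated subunits and enzymes, shuttle factors, the NFE2L1 axis, and the genes that supply ubiquitin. With both siRNAs of SART1, 18 of the 47 were called higher and 7 lower (38.3% and 14.9%, against 22.9% and 20% of all genes tested), and under quantile normalization the counts were 13 and 8. By the main scaling the counts were 4 higher and 1 lower for DDX39A (8.51% and 2.13%, against 8.67% and 6.37% of all genes tested) and 3 and 2 for SARNP (6.38% and 4.26%, against 7.17% and 7.15% of all genes tested), for which quantile normalization gave 5 and 1. They were 3 and 1 for FIBP (6.38% and 2.13%, against 4.68% and 4.39% of all genes tested) and 2 and 2 for TMEM259 (4.26% and 4.26%, against 2.56% and 2.41% of all genes tested). The shares of higher genes for DDX39A and SARNP were near those of all genes. The 5 genes of DDX39A fell to 3 with DESeq2 or without DDX39A siRNA 1 replicate 2, and to 2 without DDX39A siRNA 1 replicate 1 or without control replicate 1, and to 1 without control replicate 2. The 5 of SARNP fell to 3 with DESeq2, without SARNP siRNA 3 replicate 1 or without SARNP siRNA 3 replicate 2, and the 4 of FIBP to 2 without FIBP siRNA 6 replicate 1 or without FIBP siRNA 7 replicate 2, and to 1 with DESeq2 or without control replicate 2. The 4 of TMEM259 fell to 2 with DESeq2, without TMEM259 siRNA 5 replicate 1, without TMEM259 siRNA 6 replicate 1, without TMEM259 siRNA 6 replicate 2 or without control replicate 2, and to 1 without control replicate 1. Of the 6 chaperones that assemble the core or the base, 3 were higher and 2 lower with both siRNAs of SART1 (50% and 33.3%, against 22.9% and 20% of all genes tested). PSMG2, a core assembly chaperone, had log2 changes of 0.35 (adjusted p = 2.2e-06) and 0.37 (adjusted p = 1.0e-06) with siRNAs 4 and 6. PSMG4, of the same group, had -0.61 (adjusted p = 2.7e-06) and -0.44 (adjusted p = 1.6e-04), and it was also lower with both siRNAs of SARNP (-0.36 and -0.25). PSMG3 was higher with both siRNAs of FIBP (0.36 and 0.32).

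Of the 6 activators and inhibitor genes, 2 were higher and 1 lower with both siRNAs of SART1 (33.3% and 16.7%, against 22.9% and 20% of all genes tested). PSME4, a single-chain cap of the core, had log2 changes of 0.45 (adjusted p = 4.2e-10) and 0.45 (adjusted p = 4.4e-10). PSME1 and PSME2, the interferon-inducible cap subunits, were both higher with DDX39A siRNA 1 (0.29, adjusted p = 4.4e-05, and 0.31, adjusted p = 8.3e-05) and with SARNP siRNA 3 (0.36, adjusted p = 7.5e-07, and 0.33, adjusted p = 2.5e-05), and both lower with SART1 siRNA 4 (-0.25, adjusted p = 1.0e-05, and -0.26, adjusted p = 2.0e-05). PSMB10, interferon-inducible as well, was called in the same direction as this pair with these 3 siRNAs, though its call with SARNP siRNA 3 was lost under the alternatives given above. In its 4 other called comparisons neither gene of the pair was called in its direction. With SARNP siRNA 9, PSMB10 was higher while PSME1 was lower (-0.19, adjusted p = 0.0020) and PSME2 was not called (0.07). With SART1 siRNA 6 PSMB10 was lower, and with FIBP siRNA 6 and TMEM259 siRNA 5 it was higher, while the pair was not called. PSME1 was also lower with FIBP siRNA 7 (-0.31) and TMEM259 siRNA 6 (-0.29), where PSMB10 was not called. These 3 genes were set side by side after their values were seen. The inhibitor PSMF1 was higher with both siRNAs of FIBP (0.15 and 0.14).

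Of the 12 associated subunits and enzymes, 7 were higher and 2 lower with both siRNAs of SART1 (58.3% and 16.7%, against 22.9% and 20% of all genes tested). ZFAND5, a ubiquitin-binding activator of the particle, was higher with both siRNAs of SART1 (0.35, adjusted p = 1.8e-08, and 0.47, adjusted p = 1.1e-10), of DDX39A (0.15 and 0.40) and of SARNP (0.17 and 0.35). IPO9, an importin that carries proteasomes into the nucleus, was lower with both siRNAs of SART1 (-0.45, adjusted p = 1.4e-09, and -0.59, adjusted p = 1.4e-11), whereas AKIRIN2, its adaptor, was higher (0.23, adjusted p = 0.0019, and 0.46, adjusted p = 3.7e-07). SEM1, a small lid subunit outside the symbol rule, was lower with both siRNAs of TMEM259 (-0.48, adjusted p = 2.0e-11, and -0.14, adjusted p = 0.022). Of the 6 shuttle factors, which deliver ubiquitinated proteins, 3 were higher and 0 lower with both siRNAs of SART1 (50% and 0%, against 22.9% and 20% of all genes tested). UBQLN1 was among the higher genes (0.21 and 0.25), and it was lower with both siRNAs of DDX39A (-0.11 and -0.26) and of SARNP (-0.15 and -0.22).

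In the NFE2L1 axis, NFE2L1 itself was higher with both siRNAs of DDX39A (0.14, adjusted p = 0.0086, and 0.36, adjusted p = 6.3e-09) and of TMEM259 (0.11, adjusted p = 0.026, and 0.14, adjusted p = 0.0064). With TMEM259 siRNA 5, 15 subunit genes were called lower by the main scaling, 11 under quantile normalization and 10 with DESeq2. Whether the NFE2L1 transcript level bears on the subunit genes was not tested. With SART1 siRNAs 4 and 6 the log2 changes of NFE2L1 were -0.01 (adjusted p = 0.76) and 0.24 (adjusted p = 8.9e-07), so only the second was called. NGLY1, the enzyme that removes its sugar chains, was higher with both siRNAs of FIBP (0.20 and 0.26), and SYVN1, a ubiquitin ligase of the endoplasmic reticulum, with both of TMEM259 (0.36, adjusted p = 0.0023, and 0.37, adjusted p = 0.0026). Of the 12 genes of this list, 3 were higher and 2 lower with both siRNAs of SART1 (25% and 16.7%, against 22.9% and 20% of all genes tested), shares near those of all genes. The higher genes included the NFE2L1 partner MAFF (0.69 and 0.44) and FAF2, a cofactor of VCP (0.27 and 0.38). Among the genes that supply ubiquitin, UBB was higher with both siRNAs of DDX39A (0.18 and 0.13), and RPS27A was lower with both of FIBP (-0.16 and -0.11).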

How the data were processed

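Poly(A) RNA of 26 libraries of 786-O cells was sequenced from directional libraries as paired reads of 42 bases, per the labels' protocols. The values are a normalized signal per gene that the authors deposited in 3 tables: gene counts divided by 1 size factor per library. Within a library, all values (100%, to within 0.0001 of a read) were multiples of the value of 1 read, and dividing by it gave the reads. STAR, Picard, HTSeq, DESeq2 and hg19 are named in the submitters' processing notes; their settings, and whether counting used strand, are not given in the sources used here. Antisense genes of PSMA3 and PSMD6 are listed in the tables and are not members. A pair of labels with swapped letters (SARPN, FIPB) were read as SARNP and FIBP. Reads without a gene (7.36% to 10.8%) were left out. Each table was fitted alone with limma 3.58.1 (R 4.3.3, eBayes with trend) on log2(value + 1) for genes with a mean of at least 10 (11823, 11673 and 11768 genes), 1 mean per group, with two-sided Benjamini-Hochberg adjusted p-values over all genes tested. Residual degrees of freedom were 3, 5 and 5 before moderation. The members and all gene lists were chosen with earlier results of these data known. Members named with their library values were, per target and particle, up to 3 in each direction called by both siRNAs, the member called most often in each particle, the catalytic subunits, and up to 2 in each direction for siRNA against siRNA and target against target; of the other pathway lists, up to 3 genes each called by both siRNAs of a target, to which PSME1 and PSME2 were added after their values were seen. Values of 1 gene of these lists are not reported here. Alternatives were a pseudocount of 5, a minimum mean of 50 or none, quantile normalization, edgeR 4.0.16 and DESeq2 1.42.0 on the recovered reads, only the compared groups, a replicate block, and each library left out. Every member had at least 371 reads in each library. Levels per kilobase used GENCODE v29 transcript lengths, and promoters came from RefSeq. The scripts were tested on simulated data.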

Additional observations from a re-analysis of the deposited data

Results flagged for a closer look

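A set of 4 members were called in opposite directions by the siRNAs of 1 target, with the difference between those siRNAs called as well. PSMB6 did so for DDX39A: the log2 change against the controls was -0.16 with siRNA 1 and 0.25 with siRNA 4, and the difference of siRNA 4 from siRNA 1 was 0.41 (limma, adjusted p = 3.4e-08). Over all genes, 5.16% were called with opposite signs by the siRNAs of DDX39A. PSMD3 did so for SARNP: the log2 change against the controls was -0.17 with siRNA 3 and 0.12 with siRNA 9, and the difference of siRNA 9 from siRNA 3 was 0.29 (limma, adjusted p = 5.3e-07). PSMD12 moved in the same opposed way: the log2 change against the controls was -0.17 with siRNA 3 and 0.40 with siRNA 9, and the difference of siRNA 9 from siRNA 3 was 0.56 (limma, adjusted p = 3.0e-13). The share of all genes with opposite calls was 13% for SARNP. PSMA4 differed for FIBP: the log2 change against the controls was 0.11 with siRNA 6 and -0.12 with siRNA 7, and the difference of siRNA 7 from siRNA 6 was -0.23 (limma, adjusted p = 1.2e-05). That share was 2.5% for FIBP. No member was called in opposite directions by the siRNAs of SART1 (2.42% of all genes) or TMEM259 (2.17%). The libraries behind these values are given above for PSMB6, PSMD3 and PSMD12, and the cause was not tested.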

How the results depend on the processing

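The 22 members named with their values had 207 calls, and 88 of these were lost under at least 1 alternative. Of 2592 values under alternatives, 2337 kept direction and call, 252 kept direction without the call and 3 turned, all 3 under quantile normalization: PSMD1 (-0.071) and PSMD11 (-0.023) with SART1 siRNA 6, and PSMD2 (-0.0098) for SART1 siRNA 6 against siRNA 4. Quantile normalization turned the median log2 change of the core to -0.060 (SART1 siRNA 4), 0.023 (SARNP siRNA 3) and 0.0032 (FIBP siRNA 7), and of the regulatory particle to -0.016 (TMEM259 siRNA 6). It moved the core median to 0.025 (SART1 siRNA 6) and 0.0063 (TMEM259 siRNA 6), and the regulatory median to 0.011 and 0.0064 (SART1 siRNAs 4 and 6), 0.043 (DDX39A siRNA 1), -0.020 and 0.12 (SARNP siRNAs 3 and 9) and -0.038 (TMEM259 siRNA 5); the cause was not tested. With DESeq2, 0 members were called by both siRNAs of DDX39A and 1 by both of SARNP. Leaving out each library in turn, members called by both siRNAs numbered 12 to 19 (SART1), 0 to 3 (DDX39A), 1 to 2 (SARNP), 2 to 6 (FIBP), 1 to 1 (TMEM259). The core median then ranged over 0.016 to 0.089 (SART1 siRNA 4), 0.11 to 0.16 (SART1 siRNA 6), -0.050 to 0.00045 (DDX39A siRNA 1), 0.087 to 0.18 (DDX39A siRNA 4), -0.016 to 0.0063 (SARNP siRNA 3), -0.048 to 0.0096 (SARNP siRNA 9), 0.066 to 0.087 (FIBP siRNA 6), -0.020 to 0.018 (FIBP siRNA 7), -0.14 to -0.11 (TMEM259 siRNA 5), 0.014 to 0.048 (TMEM259 siRNA 6), and the regulatory median over 0.085 to 0.11 (SART1 siRNA 4), 0.092 to 0.14 (SART1 siRNA 6), 0.0073 to 0.030 (DDX39A siRNA 1), 0.11 to 0.17 (DDX39A siRNA 4), -0.066 to -0.029 (SARNP siRNA 3), 0.058 to 0.12 (SARNP siRNA 9), 0.054 to 0.058 (FIBP siRNA 6), 0.017 to 0.033 (FIBP siRNA 7), -0.092 to -0.039 (TMEM259 siRNA 5), 6.1e-05 to 0.018 (TMEM259 siRNA 6). Same-numbered replicates did not deviate together (correlations from -0.060 to 0.055 over 23 pairs of groups). Whether same-numbered libraries were handled together is not said in the labels, and these correlations cannot decide it. With the replicate block, members called by both siRNAs numbered 17 (SART1), 3 (DDX39A), 2 (SARNP), 4 (FIBP) and 1 (TMEM259), and 6 of the 207 calls were lost. Every member had at least 371 reads in each library, and standard errors ran from 0.028 to 0.071 on the log2 scale; how far depth or the 2 libraries a group limited the calls was not tested. DESeq2 called fewer genes with both siRNAs: over all genes 1065 against 1756 (DDX39A), 1077 against 1672 (SARNP), 599 against 1068 (FIBP), 293 against 585 (TMEM259), and over the 47 pathway genes 3 against 5 (DDX39A), 3 against 5 (SARNP), 1 against 4 (FIBP), 2 against 4 (TMEM259). Over all alternatives the members called per siRNA ranged over 3 to 10 (DDX39A siRNA 1, 9 as reported), 5 to 13 (SARNP siRNA 3, 9 as reported), 9 to 19 (SARNP siRNA 9, 15 as reported), 6 to 13 (FIBP siRNA 6, 12 as reported), 6 to 13 (FIBP siRNA 7, 13 as reported), 7 to 16 (TMEM259 siRNA 5, 16 as reported).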
